A study of Mus musculus with 12 samples.

Results

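The genes of fatty acid oxidation and ketone body metabolism were followed through dextran sulfate sodium (DSS) colitis in the mouse colon, with and without deletion of STING in myeloid cells. The set held 35 genes of the 54532 in the deposited table. They were chosen by name for their roles in the pathway, with earlier results of these data known, and all 35 were found and had enough signal to be tested.

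RNA was taken from the colon of C57BL/6N mice of 2 genotypes, in 4 groups of 3 libraries. Mice of each genotype were untreated or had 7 days of DSS in the drinking water and then 1 day of water. The Tmem173fl/fl mice (labelled WT) carried a floxed Tmem173 gene, which encodes STING, and no Cre, and Tmem173iΔmye mice (labelled CRE) were Tmem173fl/fl Lyz2-Creert2, so that Cre was driven by the Lyz2 promoter of myeloid cells and activated by tamoxifen. All mice were aged 6 to 8 weeks and all groups had received 5 tamoxifen injections, so that the untreated mice of either genotype are untreated with DSS only. DSS wounds the colonic epithelium and causes acute colitis. Libraries are numbered 1, 2 and 3 in 3 groups and 1, 2 and 5 in colitic Tmem173iΔmye mice, and p-values measure the spread between these libraries.

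Mitochondrial β-oxidation shortens a fatty acid by repeated rounds of dehydrogenation, hydration, dehydrogenation and thiolysis. Long chains enter the mitochondrion through the carnitine shuttle, and the electrons of the first step pass to electron transfer flavoprotein. In the colon the main fuel of the epithelial cell is butyrate, a short-chain fatty acid made by bacteria, which is oxidised by the same route. Acetyl-CoA can leave the pathway as ketone bodies, which other cells turn back into acetyl-CoA. PPAR transcription factors and their coactivators drive most of these genes, and PPAR targets such as Pdk4 and Angptl4 respond readily to fatty acids.

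Library totals ran from 13823237 to 18718915 counts, and the 35 genes together took from 0.277% to 0.389% of them. A lower level of the targeted gene was not detectable in the counts of these libraries. Tmem173 was at 24.5, 14.4 and 22.9 CPM (counts relative to the library total after TMM scaling) in untreated Tmem173fl/fl mice and 17.2, 14.6 and 21.3 CPM in untreated Tmem173iΔmye mice. It was at 42.4, 44.0 and 37.7 CPM in colitic Tmem173fl/fl mice and at 47.8, 23.8 and 31.1 CPM in colitic Tmem173iΔmye mice, and the groups overlapped. The log2 difference in colitis was -0.28 (SE 0.26, edgeR adjusted p = 0.602), in RNA of the tissue and not of myeloid cells alone. The counts are per gene, and a loss of single exons was not tested. The paper reports less Tmem173 RNA by qPCR in inflamed colon of Tmem173iΔmye mice. It also reports loss of STING from myeloid cells by immunofluorescence. In 3 libraries (untreated Tmem173fl/fl 3, untreated Tmem173iΔmye 3 and colitic Tmem173iΔmye 5) Xist exceeded the Y-linked genes, and in the other 9 it did not, and all 3 colitic Tmem173fl/fl libraries are among those 9. Colitic Tmem173iΔmye 5 also stood apart on the second principal component of all tested genes, at -114 against -26.5 to 31.6 in the others, and its 4 Hox markers of the distal colon summed to 462.5 CPM against 79.6 and 87.7 CPM in libraries 1 and 2 of its group. The 8 pancreas markers summed from 103 to 10630 CPM over the libraries, with 3 of the 4 highest sums in colitic mice.

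The promoter windows of some of the genes that moved most are shown first, as the sequence next to the start of genes whose levels the results turn on. RefSeq windows on GRCm38.p6, from 250 bases before to 50 bases after a gene's start, were found for 29 of the 35 genes, and those of Acaa2, Acat1, Angptl4, Crat, Decr1 and Ppargc1b were not analysed here. Capitals mark CCAAT, on either strand, in Acaa1b and Pdk4. In Fabp1 they mark the looser form of the PPAR element, in which AGGNCA is repeated after 1 base of spacing, read on the other strand. The Oxct1 and Ppargc1a windows held none of the motifs searched and have no capitals. Oxct1 and Ppargc1a fell furthest of the ketone body enzymes and of the regulators, Acaa1b and Pdk4 rose, and Fabp1 is the one member with the PPAR form. The windows lie at chr15:4026178-4026477 for Oxct1 on the + strand, chr5:51567676-51567975 for Ppargc1a on the - strand, chr9:119157044-119157343 for Acaa1b on the - strand, chr6:5496229-5496528 for Pdk4 on the - strand and chr6:71199629-71199928 for Fabp1 on the + strand, each printed 5′ to 3′ on the gene's own strand.
Oxct1: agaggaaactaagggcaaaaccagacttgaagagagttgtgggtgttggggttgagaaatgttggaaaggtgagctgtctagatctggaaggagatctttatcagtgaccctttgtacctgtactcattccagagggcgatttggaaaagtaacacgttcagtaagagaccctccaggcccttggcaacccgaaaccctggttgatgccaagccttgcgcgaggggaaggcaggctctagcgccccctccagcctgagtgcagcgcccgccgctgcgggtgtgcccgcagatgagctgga
Ppargc1a: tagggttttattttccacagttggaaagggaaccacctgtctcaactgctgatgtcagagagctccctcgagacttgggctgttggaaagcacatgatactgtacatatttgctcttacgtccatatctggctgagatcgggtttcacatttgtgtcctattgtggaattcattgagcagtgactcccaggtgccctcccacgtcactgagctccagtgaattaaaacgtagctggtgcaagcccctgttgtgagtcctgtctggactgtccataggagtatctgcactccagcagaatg
Acaa1b: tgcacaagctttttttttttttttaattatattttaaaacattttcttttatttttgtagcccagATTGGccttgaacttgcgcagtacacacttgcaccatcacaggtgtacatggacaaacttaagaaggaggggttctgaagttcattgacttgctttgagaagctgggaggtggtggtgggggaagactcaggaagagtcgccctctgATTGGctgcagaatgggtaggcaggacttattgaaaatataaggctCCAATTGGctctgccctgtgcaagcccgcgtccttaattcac
Pdk4: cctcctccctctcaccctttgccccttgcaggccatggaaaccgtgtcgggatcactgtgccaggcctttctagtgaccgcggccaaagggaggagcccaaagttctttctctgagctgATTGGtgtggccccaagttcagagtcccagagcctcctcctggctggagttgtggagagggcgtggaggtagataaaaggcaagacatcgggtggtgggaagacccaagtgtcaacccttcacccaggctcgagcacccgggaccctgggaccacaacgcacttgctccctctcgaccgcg
Fabp1: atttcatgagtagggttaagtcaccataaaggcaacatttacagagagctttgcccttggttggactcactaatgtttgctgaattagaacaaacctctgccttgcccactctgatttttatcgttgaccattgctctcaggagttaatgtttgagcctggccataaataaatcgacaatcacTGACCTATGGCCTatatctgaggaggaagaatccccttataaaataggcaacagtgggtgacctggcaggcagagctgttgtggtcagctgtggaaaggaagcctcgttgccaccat

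Some genes have more than 1 window, and a gene was counted if any of its windows held the motif. Searched on both strands, the strict PPAR element (AGGTCA repeated after 1 base of spacing) was in 0 of the 29 genes and in 0.0481% of all 27025 genes with a window. The looser form was in the Fabp1 window alone, 67 bases before the start, and in 0.451% of all genes with a window. Pdk4 held CCAAT once, 131 bases before its start, and Acaa1b held it at 4 places, of which the pair after the start overlap. CCAAT was in 12 members, or 41.4%, close to the 41.1% of all genes. AAGGTCA, the half-site bound by ERR receptors, was in the Acadm window alone and in 5.38% of all genes. The GC box GGGCGG was in 20 members, or 69.0%, against 38.2% of all genes. The NRF1 motif was in the windows of Etfb, Etfdh and Ppara, or 10.3% against 5.19%. Hadha and Hadhb, which encode the subunits of the trifunctional protein, start head to head on chromosome 5 with 85 bases between the starts, and their windows therefore overlap. A match of letters is a description, and these windows hold only the region next to the start.

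In Tmem173fl/fl mice DSS lowered 16 of the 35 genes and raised 5 at an adjusted p under 0.05, and all 3 ketone body enzymes fell. Of the 35 genes, 6 were lower and 3 higher by edgeR at an adjusted p under 0.05 and a change of at least 2-fold, beside 7.61% of all 24102 tested genes lower and 14.9% higher (22.5% in all). The counts at the adjusted p alone stand beside 16% lower and 19.5% higher (35.4% in all) among all tested genes. The median log2 change of the 35 was -0.34, against 0.03 for all tested genes. The groups did not overlap for 21 members that were lower and 5 that were higher, beside 25.4% and 23.9% of all tested genes. In whole tissue, fewer cells of a type and less RNA per cell cannot be told apart.

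**Figure D1:**
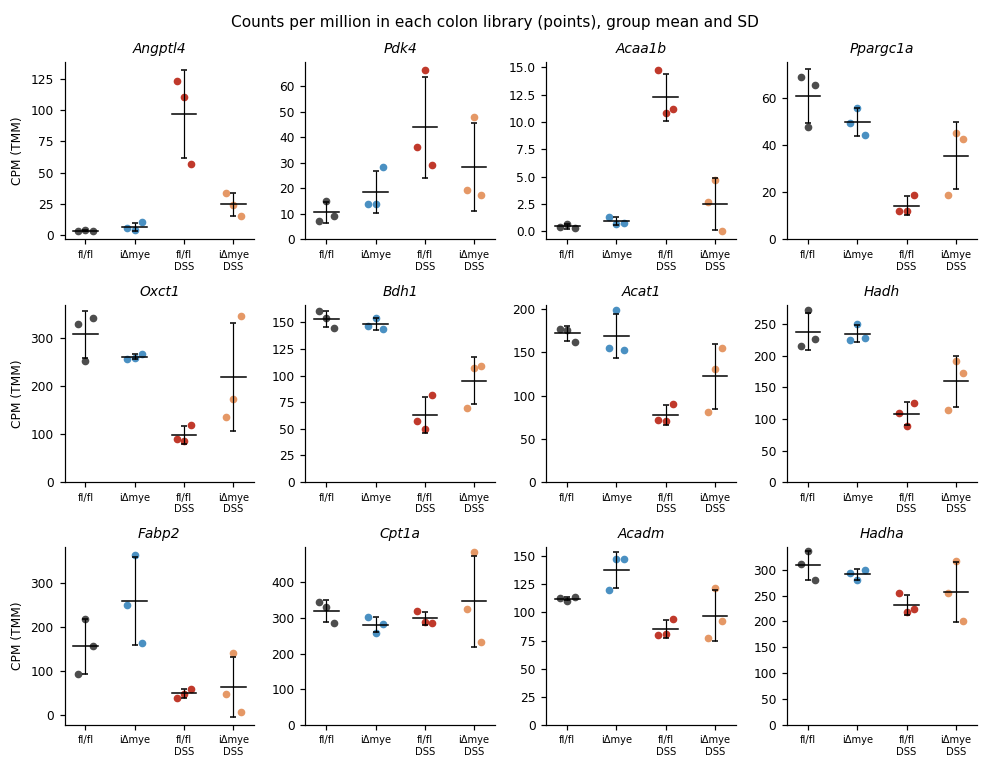
CPM (TMM-scaled, linear axes) of 12 members in every colon library, with 1 point per library, the group mean as a line and the SD as bars. Angptl4 lies between 57.2 and 123 CPM in colitic Tmem173fl/fl mice and between 15.7 and 33.9 CPM in colitic Tmem173iΔmye mice, while Oxct1, Bdh1 and Acat1 are low in the former and spread widely in the latter.

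Of the carnitine shuttle, the gatekeeper Cpt1a held its level and Cpt2, which acts inside the mitochondrion, fell. Cpt1a, the carnitine palmitoyltransferase that commits long chains to oxidation, was at 346, 331 and 286 CPM in untreated and 320.0, 289 and 287 CPM in colitic Tmem173fl/fl mice. The groups overlapped, and the log2 change was -0.032 (SE 0.14, edgeR adjusted p = 0.887), with the sign turned to 0.025 without untreated Tmem173fl/fl 1. Cpt2 was at 90.5 to 115 CPM in untreated and 43.5 to 63.6 CPM in colitic mice, and every colitic library was below every untreated one. It fell by 0.90 on the log2 scale (SE 0.16, edgeR adjusted p = 0.00199). Slc25a20, the carrier between these enzymes, and Crat, carnitine acetyltransferase, did not pass the test.

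Of the acyl-CoA dehydrogenases, which open each round of β-oxidation, only the short-chain enzyme Acads passed. It went from 160.0, 193 and 147 CPM to 104, 83.6 and 122 CPM and fell by 0.62 on the log2 scale (SE 0.17, edgeR adjusted p = 0.0174). Acads, which acts on butyryl-CoA, missed the threshold without library 2 of the untreated group (edgeR adjusted p = 0.0662) or colitic library 1 (0.0551) or 2 (0.0505). Acadm, the medium-chain enzyme, was at 113, 111 and 114 CPM in untreated and 80.3, 80.5 and 94.5 CPM in colitic mice. Its groups did not overlap, and its log2 change of -0.33 (SE 0.13) missed the threshold (edgeR adjusted p = 0.0668), but passed it in 5 of 16 alternatives (adjusted p = 0.032 to 0.0409). Acadl and Acadvl, for long and very long chains, also had log2 changes below 0 that did not pass, and 42.9% of the exonic bases of Acadvl are shared with Dvl2 on the other strand, so that its counts are uncertain.

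Of the 3 genes for the carriers of the electrons from this step, 2 fell. Etfdh, which hands the electrons to ubiquinone, was at 88.4, 87.7 and 91.6 CPM in untreated and 51.6, 51.4 and 55.1 CPM in colitic Tmem173fl/fl mice, among the tightest separations in the set. It fell by 0.69 on the log2 scale (SE 0.12, edgeR adjusted p = 0.00126), and Etfa, the α subunit of the flavoprotein, fell by 0.70 (SE 0.12, edgeR adjusted p = 0.00164). Etfb, the β subunit, was counted at only 34 to 178 reads per library, against 1087 to 2810 for Etfa. Of its exonic bases, 58.2% are shared with other annotated genes on the same strand, so that its counts are uncertain and no direction is read from them.

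In the later steps of the round 1 thiolase rose while Hadh, Hadhb and Echs1 fell. Hadh, the 3-hydroxyacyl-CoA dehydrogenase for short and medium chains, was at 216, 272 and 227 CPM in untreated and 109, 89.5 and 126 CPM in colitic mice, with no overlap. It fell by 1.07 on the log2 scale (SE 0.17, edgeR adjusted p = 0.000747). Its fall was just under 2-fold without library 2 of the untreated Tmem173fl/fl group (-0.98) or of the colitic Tmem173fl/fl group (-0.97). Hadhb and Echs1, the crotonase that hydrates short chains, fell by 0.41 and 0.57 in log2 (adjusted p of 0.0371 and 0.00466 by edgeR). Hadhb missed the threshold under the replicate block and in 5 of 6 fits that left out 1 library, all but that without untreated Tmem173fl/fl 2 (edgeR adjusted p = 0.0522 to 0.0928). Hadha was at 310.4, 335 and 280.2 CPM against 255, 217 and 224 CPM, with a log2 change of -0.34 (SE 0.14, edgeR adjusted p = 0.0877) that passed in 4 of 16 alternatives (adjusted p = 0.0441 to 0.0498). Acaa2, the thiolase that closes the round, went the other way, from 64.9, 80.6 and 63.0 CPM to 115, 125 and 97.7 CPM, and rose by 0.76 on the log2 scale (SE 0.15, edgeR adjusted p = 0.00284).

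The auxiliary enzymes for unsaturated chains also split. Decr1, the mitochondrial 2,4-dienoyl-CoA reductase, went from 61.7, 63.1 and 64.3 CPM to 40.1, 28.2 and 38.6 CPM and fell by 0.75 on the log2 scale (SE 0.15, edgeR adjusted p = 0.00352). Eci2, an enoyl-CoA isomerase found in peroxisomes and mitochondria, went from 27.0, 30.8 and 28.3 CPM to 50.5, 57.9 and 47.7 CPM and rose by 0.93 (SE 0.14, edgeR adjusted p = 0.000536). Eci1, the mitochondrial isomerase, was at 31.4, 30.6 and 30.2 CPM in untreated and 21.02, 21.2 and 27.5 CPM in colitic mice, a difference that did not pass the test. The isomerases thus lay on opposite sides of their untreated levels in every colitic Tmem173fl/fl library. Ech1, a dienoyl-CoA isomerase, had overlapping groups.

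Peroxisomal members held the largest rise of the set. Ehhadh, the bifunctional enzyme of peroxisomal β-oxidation, was at 59.6, 56.0 and 61.9 CPM in untreated and 32.6, 29.3 and 31.1 CPM in colitic mice. It fell by 0.87 on the log2 scale (SE 0.13, edgeR adjusted p = 0.000488), and Decr2, the peroxisomal dienoyl-CoA reductase, fell by 0.66 (SE 0.13, edgeR adjusted p = 0.00293). Acaa1b, one of the peroxisomal thiolases, rose 29.2-fold, from 0.379, 0.677 and 0.251 CPM to 14.7, 10.8 and 11.2 CPM (log2 4.87, SE 0.35, edgeR adjusted p = 7.51e-06). The untreated values rest on 5, 10 and 4 counts, so that the size of the rise is uncertain. It passed in all 16 alternatives, at log2 changes from 2.58 to 5.33. Acaa1a, its paralog, was at 115, 106 and 87.4 CPM against 87.8, 93.3 and 72.9 CPM and did not pass. These paralogs share 583 stretches of 50 bases, which are 30.5% of those of Acaa1b, so that reads may be split between them and both levels are uncertain.

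The ketone body enzymes were each lower in every colitic Tmem173fl/fl library than in any untreated one. Bdh1, the mitochondrial β-hydroxybutyrate dehydrogenase, was at 160.4, 154 and 145 CPM in untreated and 57.5, 49.4 and 81.6 CPM in colitic mice, and fell by 1.22 on the log2 scale (SE 0.18, edgeR adjusted p = 0.000652). Oxct1, which activates acetoacetate for its oxidation, was at 328, 252 and 342 CPM against 90.1, 85.7 and 119 CPM. It fell by 1.58 (SE 0.19, edgeR adjusted p = 0.00014), a 2.99-fold difference and the largest fall among the enzymes of the set. Acat1, the mitochondrial acetoacetyl-CoA thiolase, was at 178, 176 and 163 CPM against 71.9, 70.4 and 90.4 CPM and fell by 1.08 (SE 0.14, edgeR adjusted p = 0.000284). Oxct1 works in the breakdown of ketone bodies, and Bdh1 and Acat1 work in both directions. Of their exonic bases, 13.7% of Bdh1 and 12.6% of Oxct1 are shared with genes on the other strand, so that part of their counts is uncertain, while Acat1 shares 0. Their summed level per length was 172, 151 and 169 FPKM (fragments scaled by gene length and library depth) in untreated and 58.9, 55.0 and 78.4 FPKM in colitic Tmem173fl/fl mice.

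**Figure D2:**
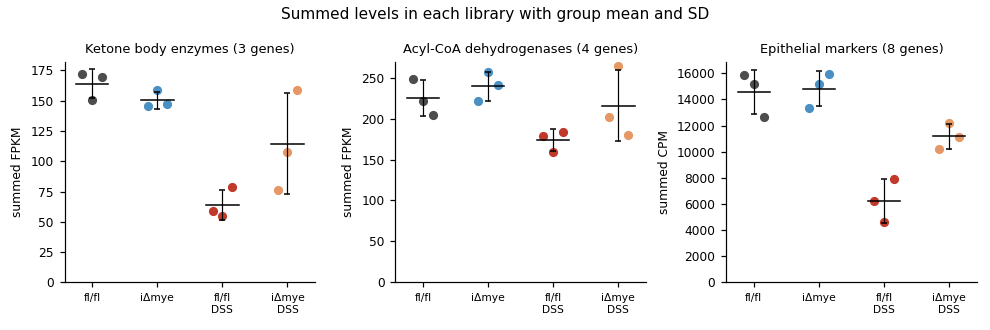
Summed FPKM of the ketone body enzymes (left) and of the acyl-CoA dehydrogenases (middle), and summed CPM of 8 epithelial markers (right), with 1 point per library, the group mean as a line and the SD as bars, on axes that start at 0. The ketone body sum lies between 55.0 and 78.4 FPKM in colitic Tmem173fl/fl mice against 151 to 172 FPKM in untreated ones, and the epithelial sum is lowest in the same libraries.

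Among the regulators, the coactivators fell, and Ppara and Pparg did not pass. Ppargc1a, which encodes PGC-1α, the coactivator of mitochondrial biogenesis, was at 69.0, 47.7 and 65.4 CPM in untreated and 12.1, 11.8 and 18.8 CPM in colitic Tmem173fl/fl mice. It fell by 2.03 on the log2 scale, or 4.08-fold (SE 0.22, edgeR adjusted p = 8.8e-05), the largest fall of the set. Its relative Ppargc1b fell by 0.92 (SE 0.16, edgeR adjusted p = 0.00139). Ppara, the receptor that drives fatty acid oxidation, was low and variable, at 9.32, 20.98 and 9.77 CPM against 14.0, 9.09 and 15.1 CPM, with a log2 change of -0.0026 (SE 0.32, edgeR adjusted p = 0.998). The sign for Ppara turned positive under the replicate block (0.074), both limma settings (0.049 and 0.029) and without library 2 of either group (0.47 and 0.17). Pparg missed the threshold (edgeR adjusted p = 0.0547). Of 6 other regulators tested outside the set, 1 fell past the rule, beside 7.61% of all tested genes. It was the receptor Ppard (named after its values were seen), from 292, 328 and 251 CPM to 137, 114 and 152 CPM (edgeR adjusted p = 0.000796).

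Pdk4 and Angptl4, the members grouped here as PPAR targets, rose. Other members that PPAR factors drive were grouped by their enzyme roles, and many of those fell. Pdk4, the kinase that turns off pyruvate dehydrogenase and spares glucose, went from 7.20, 15.1 and 9.27 CPM to 36.3, 66.6 and 29.3 CPM, with no overlap. It rose 4.40-fold (log2 2.14, SE 0.34, edgeR adjusted p = 0.000971). Angptl4 (ENSMUSG00000002289, chr17:33773750-33781575 on GRCm38), a secreted inhibitor of lipoprotein lipase, went from 3.41, 4.26 and 3.63 CPM to 123, 110.5 and 57.2 CPM. It rose 26.9-fold (log2 4.75, SE 0.30, edgeR adjusted p = 3.02e-06). Of the 7 tested genes of a further list of PPAR targets, 3 were below and 4 above their untreated level, with 0 lower and 1 higher past the rule and 2 in each direction at the adjusted p alone. Of all tested genes 7.61% were lower and 14.9% higher past the rule, and 16% and 19.5% at the adjusted p alone. Of the 7 adipocyte markers, whose cells also express Angptl4, Pdk4 and Pparg, 4 were lower and 3 higher in colitic mice (1 and 2 past the rule, median log2 change -0.22). Their sum went from 12.8 to 99.8 CPM in untreated to 98.2 to 160.5 CPM in colitic Tmem173fl/fl mice, mostly in Fabp4, at 7.57 to 20.8 and 61.7 to 99.0 CPM. All 6 neutrophil markers rose past the rule, and their sum went from 46.3 to 105.5 CPM to 381 to 630.5 CPM. In the colitic libraries 0 of either list were at 0 counts, and their part in the result was not tested.

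The fatty acid binding proteins carry fatty acids through the cytosol of enterocytes. Fabp2 was at 92.1, 218 and 157 CPM in untreated and 39.4, 47.9 and 59.8 CPM in colitic mice, and fell by 1.60 on the log2 scale (SE 0.28, edgeR adjusted p = 0.00161). The call was lost when 1 fit held all 12 libraries (edgeR adjusted p = 0.0827). Fabp1, the liver form, was barely detected, at 6, 1 and 0 counts in untreated and 10, 35 and 5 counts in colitic Tmem173fl/fl libraries, and is given by its counts.

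**Figure D3:**
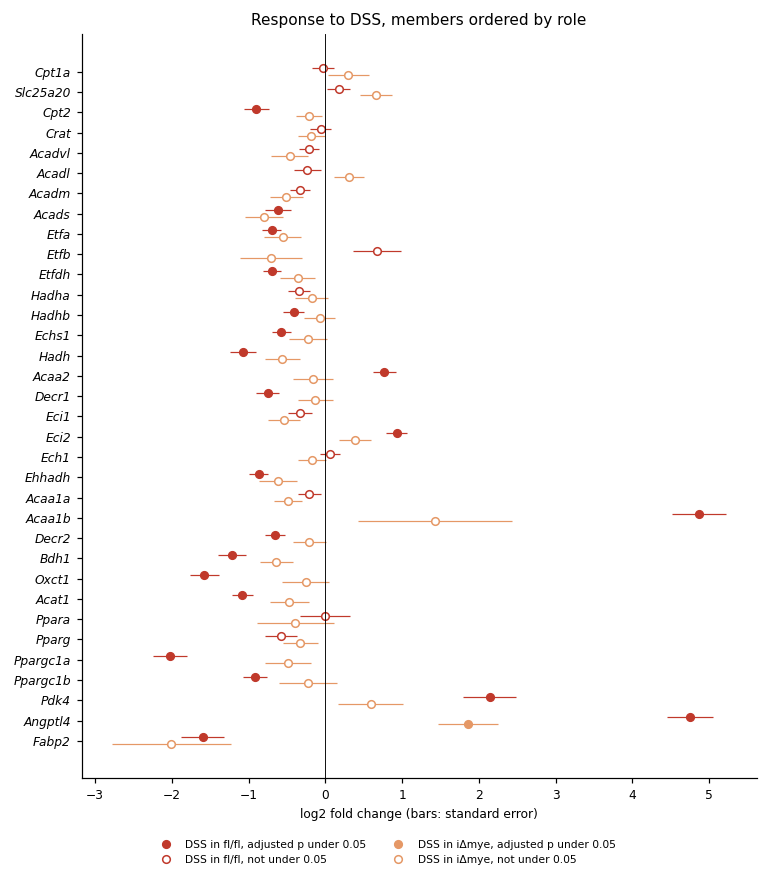
Log2 fold change of 34 members after DSS (Fabp1 is left out for its low counts), with bars for the standard error, in Tmem173fl/fl mice (red) and Tmem173iΔmye mice (orange). Filled points have an edgeR adjusted p under 0.05, which 21 members reach in Tmem173fl/fl mice and Angptl4 alone in Tmem173iΔmye mice.

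Markers of the epithelium, whose cells oxidise butyrate, were lower in the same libraries. All 8 epithelial markers were lower in colitic than in untreated Tmem173fl/fl mice, and their median log2 change was -1.17 with 6 of 8 past the rule. Their summed level was 12670 to 15880 CPM in untreated and 4581 to 7920 CPM in colitic Tmem173fl/fl mice, with none of the 8 at 0 counts in a colitic library. Bdh1, Oxct1, Ppargc1a and Fabp2 fell by more than that median, and the other 31 members lay above it. The 4 distal colon markers went from 219 to 377 CPM down to 20.97 to 36.4 CPM in the same libraries, with 1 marker at 0 in colitic Tmem173fl/fl 3. The part of either in the fall of the pathway was not tested.

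In Tmem173iΔmye mice the same treatment left Angptl4 as the only member past the rule, 1 of 35 beside 2.08% of all tested genes (1.48% higher). Angptl4 was at 5.58, 4.25 and 10.5 CPM in untreated and 33.9, 24.6 and 15.7 CPM in colitic Tmem173iΔmye mice, and the groups did not overlap. It rose 3.62-fold (log2 1.86, SE 0.39, edgeR adjusted p = 0.0399). The call was lost without any 1 of the 3 untreated libraries or without colitic library 1 or 2 (log2 1.57 to 2.35, edgeR adjusted p = 0.0842 to 0.242), and kept without library 5. It was also lost with the filterByExpr filter (edgeR adjusted p = 0.0521) and with limma (limma adjusted p = 0.14 and 0.15). The median log2 change of the 35 genes was -0.26, against 0.02 for all tested genes. All 8 epithelial markers were lower as well, 0 of them past the rule (edgeR), with a median of -0.40 that 14 members lay below. Their sum went from 13360 to 15950 CPM in untreated to 10240 to 12170 CPM in colitic Tmem173iΔmye mice. All 6 neutrophil markers were higher, 4 of them past the rule, with a median of 3.74, and their sum went from 44.7 to 81.3 CPM to 189.6 to 307 CPM. Neither list had a marker at 0 counts in the colitic libraries, and their part in the result was not tested. The groups did not overlap for 9 members that were lower and 2 that were higher, beside 9.41% and 12.1% of all genes.

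The members that moved most in Tmem173fl/fl mice were spread widely in colitic Tmem173iΔmye mice. Oxct1 was at 257, 258 and 267 CPM in untreated and 136, 174 and 346 CPM in colitic Tmem173iΔmye mice, so that library 5 lay above every untreated library (log2 change -0.26, SE 0.31, edgeR adjusted p = 0.746). Without colitic library 5 the log2 change of Oxct1 was -0.73, under 2-fold, at an edgeR adjusted p of 0.048. Ppargc1a was at 49.4, 55.6 and 44.1 CPM against 19.0, 45.0 and 42.5 CPM (log2 change -0.49, SE 0.30, edgeR adjusted p = 0.483). In both genes library 1 was the lowest of its group, and the groups overlapped. Bdh1 was at 147, 154 and 144 CPM against 69.4, 108 and 109 CPM, without overlap (log2 change -0.64, SE 0.21, edgeR adjusted p = 0.18). Pdk4 was at 14.0, 13.9 and 28.3 CPM against 19.4, 48.2 and 17.3 CPM (log2 change 0.59, SE 0.42, edgeR adjusted p = 0.56). Without colitic library 2, which holds the one high value of Pdk4, that change was -0.021, and with the replicate block Pdk4 passed (1.13, edgeR adjusted p = 0.031).

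Acaa1b and Fabp2 differed most among the colitic Tmem173iΔmye libraries. Acaa1b was at 1.33, 0.659 and 0.721 CPM in untreated and 2.64, 4.73 and 0 CPM in colitic Tmem173iΔmye mice (log2 change 1.43, SE 1.01, edgeR adjusted p = 0.555). Without colitic library 5, where Acaa1b was not detected, it rose by 2.04 (edgeR adjusted p = 0.0261). Fabp2 was at 249, 362 and 163 CPM against 47.0, 139.8 and 6.43 CPM, with the lowest value again in library 5 (log2 change -2.01, SE 0.77, edgeR adjusted p = 0.242). It passed with the replicate block (-1.89, edgeR adjusted p = 0.000325) and with no filter (0.0237). Library 5 is the one that stood apart on the second component. The same library held 2.67 CPM of Ppara, against 8.48 and 13.4 CPM in libraries 1 and 2, and the highest Oxct1 and Acat1 of its group.

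As all tested genes did, the 35 genes set the colitic Tmem173fl/fl libraries apart. On the first principal component of their log2(FPKM + 0.1) values, which holds 61.9% of their variance, the untreated libraries of either genotype lay from -3.97 to -1.47 and the colitic Tmem173fl/fl libraries from 3.90 to 6.09. The colitic Tmem173iΔmye libraries lay between them or among the untreated, at 1.59 for library 1, 0.53 for library 2 and -1.68 for library 5. Acaa1b and Angptl4 had the largest loadings, 0.53 each. On the second component library 5 lay at -5.62 and the others from -1.82 to 1.98, with the largest loading for Fabp2 at 0.69. On the first component of all tested genes (38.95% of variance) the untreated libraries lay from -72.95 to -47.55. The colitic Tmem173fl/fl libraries lay there from 96.74 to 119.8, and colitic Tmem173iΔmye libraries 1, 2 and 5 at 63.55, 15.55 and -32. The arrangement is therefore not particular to the 35 genes. These positions are descriptive.

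Without DSS the genotypes did not separate. None of the 35 genes passed the rule (edgeR), beside 0% of all tested genes, and DESeq2 called 0 as well. At an unadjusted p under 0.05 there were 4 members, Etfb, Pdk4, Angptl4 and Fabp2, beside 2.99% of all tested genes. The groups did not overlap for 2 members, Cpt2 (lower) and Acadm (higher in Tmem173iΔmye mice), beside 7.35% of all genes. Cpt2 was at 90.5 to 115 CPM in Tmem173fl/fl and 79.3 to 86.9 CPM in Tmem173iΔmye mice. The median log2 difference was 0.06.

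In colitic mice 1 member differed between the genotypes past the rule, beside 2.81% of all tested genes (1.99% lower), and it was Angptl4. It was 3.95-fold lower in Tmem173iΔmye mice (24.7 ± 9.10 CPM against 96.9 ± 34.97 CPM, SD, n = 3 each, log2 -1.98, SE 0.36, edgeR adjusted p = 0.0297), and the highest Tmem173iΔmye library, at 33.9 CPM, lay below the lowest Tmem173fl/fl library, at 57.2 CPM. The call was lost without Tmem173fl/fl library 1 (edgeR adjusted p = 0.121) or 2 (0.0781), without Tmem173iΔmye library 2 (0.111) or 5 (0.051), and with limma (0.0782 and 0.072), and the difference stayed between -2.29 and -1.74 over all alternatives. Of the 6 neutrophil markers 5 were lower in colitic Tmem173iΔmye mice, 3 of them past the rule, with a median log2 difference of -2.48, and Ly6g was higher (0.27, edgeR adjusted p = 0.741). Their sum was 381 to 630.5 CPM in colitic Tmem173fl/fl and 189.6 to 307 CPM in colitic Tmem173iΔmye mice, of which Ly6g made 95.2 to 224 and 100.9 to 239 CPM. Of the 7 adipocyte markers 2 were lower and 5 higher, 0 past the rule (edgeR), and their sums overlapped, at 98.2 to 160.5 and 66.5 to 149 CPM. Their part in the result was not tested.

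Most members were higher in the colitic Tmem173iΔmye group without passing the test. The median log2 difference was 0.22, against 0.02 for all tested genes, and 22 of 35 were higher with TMM scaling, 23 with RLE and 26 with upper-quartile scaling. With TMM scaling 37.1% of members were lower, beside 48.3% of all tested genes. The other scalings moved all genes alike, to medians of 0.05 (RLE) and 0.08 (upper-quartile), so that their larger counts are no further result. The groups did not overlap for 8 members that were higher (Slc25a20, Cpt2, Acadl, Etfa, Etfdh, Hadhb, Oxct1 and Ppargc1a) and 3 that were lower (Acaa1b, Angptl4 and Fabp1), beside 12% and 14.8% of all genes. Ppargc1a, at 19.0, 45.0 and 42.5 CPM against 12.1, 11.8 and 18.8 CPM, was 2.47-fold higher (log2 1.31, SE 0.34, edgeR adjusted p = 0.0825), and Oxct1, at 136, 174 and 346 CPM against 90.1, 85.7 and 119 CPM, was 2.22-fold higher (log2 1.15, SE 0.34, edgeR adjusted p = 0.108). In neither did the groups overlap. Both passed with DESeq2 (adjusted p = 0.00842 and 0.0199), with 1 fit of all 12 libraries, with no filter and without Tmem173iΔmye library 1. Over the fits without 1 library, Ppargc1a ran from 1.12 to 1.60 in log2 (edgeR adjusted p up to 0.284). Oxct1 ran from 0.65 to 1.39 (edgeR adjusted p up to 0.329). Acaa1b, at 2.64, 4.73 and 0 CPM against 14.7, 10.8 and 11.2 CPM, was lower without overlap (log2 -2.33, SE 0.94, edgeR adjusted p = 0.212), and passed without Tmem173iΔmye library 5 (log2 -1.74, edgeR adjusted p = 0.0428) and with the replicate block (-1.83, edgeR adjusted p = 0.0393).

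Epithelial markers were also higher. In colitis all 8 were higher in Tmem173iΔmye mice, with a median log2 difference of 0.80 and 0 of 8 past the rule, and summed to 10240 to 12170 against 4581 to 7920 CPM. Only Ppargc1a and Oxct1 lay above that median, and the other 33 members below it. The 4 distal colon markers moved further. In colitis all 4 were higher in Tmem173iΔmye mice, 2 of them past the rule, with a median log2 difference of 3.42, and summed to 79.6, 87.7 and 462.5 CPM against 20.97 to 36.4 CPM, with 1 marker at 0 counts in colitic Tmem173fl/fl 3. In the interaction all 8 epithelial and all 4 distal colon markers were above 0, with medians of 0.79 and 2.49 and with 1 and 2 past the rule. The part of either list in the differences between the colitic genotypes and in the interactions, those of Slc5a8 and Cs included, was not tested.

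Fabp1 was at 0 counts in all 3 colitic Tmem173iΔmye libraries and at 10, 35 and 5 counts in colitic Tmem173fl/fl libraries. With a floor of 3 counts per library it was at least 4.36-fold lower, and at least 2.27-fold lower without colitic Tmem173fl/fl 2, which holds 35 of the 50 counts (an alternative chosen after seeing the data). A level below that floor was not detectable at this depth. The same library, the deepest of its group, held the most raw counts of its group for 4 of the 6 small intestine markers. These were Apoa4 (39, against 3 and 3 in libraries 1 and 3), Apoa1 (57, against 8 and 25), Fabp6 (29, against 2 and 10) and Lct (6, against 3 and 5). Raw counts are not scaled for depth. The sum of the 6 was lowest in that library, at 79.96 CPM against 108.6 and 133 CPM in libraries 1 and 3. In colitic Tmem173iΔmye mice the sum was 30.1 to 87.5 CPM. Alpi made 70.8 to 125 CPM of the sum in colitic Tmem173fl/fl mice and 1.21 to 73.2 CPM in colitic Tmem173iΔmye mice. Of the 4 markers tested between the colitic genotypes, 3 were lower in Tmem173iΔmye mice and 1, Fabp6, was higher. Fabp6 was at 20, 192 and 474 counts in colitic Tmem173iΔmye libraries. In that group 2 of the 6 were at 0 counts in library 5, and the part of these markers in the result was not tested. Untreated libraries of either genotype held 0 to 6 counts of Fabp1. The counts cover counting error only.

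The interaction asks whether the response to DSS itself differed between the genotypes. It passed for Angptl4 alone, 1 of 35 beside 2.55% of all tested genes (1.61% below 0). The rise of Angptl4 was smaller in Tmem173iΔmye mice by 2.82 on the log2 scale (SE 0.52, edgeR adjusted p = 0.0134), with 3 of 3 colitic libraries of each genotype above their untreated libraries. It passed in 20 of 21 alternatives, and without the libraries of female pattern it was -2.11 (edgeR adjusted p = 0.076). Ppargc1a had an interaction of 1.61 (SE 0.41, edgeR adjusted p = 0.0515), just outside the threshold, and Oxct1 of 1.39 (SE 0.39, edgeR adjusted p = 0.0778). Bdh1, Acat1 and Hadh, which fell more than 2-fold in Tmem173fl/fl mice, had interactions of 0.65, 0.68 and 0.58 (edgeR adjusted p = 0.252, 0.25 and 0.293). Of 21 alternatives, Ppargc1a passed in 4 (DESeq2, no filter, without colitic Tmem173fl/fl 3 and without colitic Tmem173iΔmye 1, adjusted p = 0.00321 to 0.0395) and Oxct1 in 3 (DESeq2, no filter and without colitic Tmem173iΔmye 1, adjusted p = 0.0111 to 0.0251). Acaa1b, at -3.36 (SE 1.23, edgeR adjusted p = 0.168), passed in 4 (no filter, replicate block, limma on log2(FPKM + 1) and without colitic Tmem173iΔmye 5, adjusted p = 0.0264 to 0.0436). Over the fits without 1 library, the interaction of Oxct1 ran from 0.88 to 1.64 (edgeR adjusted p up to 0.198). That of Ppargc1a ran from 1.40 to 1.91 (up to 0.148), and that of Acaa1b from -4.29 to -2.80 (up to 0.311). The comparisons share groups, so that their counts are not independent.

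**Figure D4:**
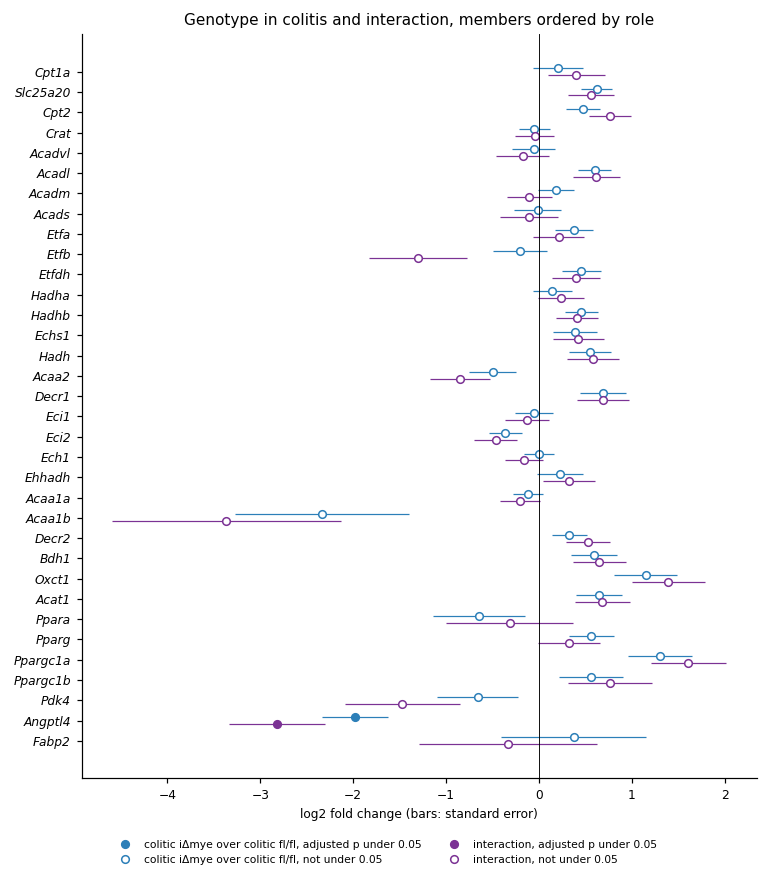
Log2 difference of 34 members between the colitic genotypes (Tmem173iΔmye minus Tmem173fl/fl, blue) and interaction of genotype and DSS (purple), with bars for the standard error and filled points for an edgeR adjusted p under 0.05 (Fabp1 is left out for its low counts). Angptl4 is the only filled member in either, at -1.98 and -2.82, with Ppargc1a (1.31 and 1.61) and Oxct1 (1.15 and 1.39) at the other end.

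Other genes of the pathway were read from a list of 65, of which 63 were tested. In Tmem173fl/fl mice DSS lowered 8 and raised 13 of them past the rule (21 lower and 17 higher at the adjusted p alone), beside the 7.61% lower and 14.9% higher of all tested genes (16% and 19.5% at the adjusted p alone) that also stand beside the counts of synthetases and of mitochondrial mass genes. The transport of short-chain fatty acids changed at all 3 listed carriers. Slc5a8, the sodium-coupled carrier of butyrate at the luminal face, was at 426, 479 and 507 CPM in untreated and 70.9, 50.04 and 82.0 CPM in colitic Tmem173fl/fl mice and fell 6.64-fold (log2 -2.73, SE 0.20, edgeR adjusted p = 8.12e-06). Slc16a1, the proton-coupled carrier MCT1, went from 326, 289.5 and 386 CPM to 149.5, 118 and 178 CPM. Slc16a3, the lactate exporter MCT4, went from 9.39, 6.23 and 7.01 CPM to 45.1, 54.7 and 58.0 CPM and rose 7.32-fold (log2 2.87, SE 0.20, edgeR adjusted p = 5.17e-06).

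Slc5a8 differed between the colitic genotypes. It was at 448, 366 and 367 CPM in untreated and 183, 305 and 284 CPM in colitic Tmem173iΔmye mice, 3.77-fold above colitic Tmem173fl/fl mice and without overlap (log2 1.92, SE 0.26, edgeR adjusted p = 0.0159). That call was lost without Tmem173fl/fl library 1 (edgeR adjusted p = 0.073) or Tmem173iΔmye library 2 (0.0587) and with limma at a pseudocount of 0.1 (0.0553). The interaction of Slc5a8 was 2.18 (SE 0.31, edgeR adjusted p = 0.0059) and passed in all 21 alternatives. Slc16a3 was at 11.5, 20.4 and 13.4 CPM in untreated and 30.6, 34.2 and 23.4 CPM in colitic Tmem173iΔmye mice. Its interaction was -1.84 (SE 0.34, edgeR adjusted p = 0.0134), and without the libraries of female pattern -1.76 (edgeR adjusted p = 0.0764).

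Of the 8 listed synthetases that activate fatty acids, 3 fell and 2 rose past the rule in Tmem173fl/fl mice. Acsm3, a medium-chain synthetase that also takes butyrate, fell 7.30-fold in Tmem173fl/fl mice (log2 -2.87, SE 0.32, edgeR adjusted p = 9.62e-05), from 115, 105 and 142 CPM to 14.3, 8.81 and 24.4 CPM. It also fell in Tmem173iΔmye mice, from 115, 124 and 126 CPM to 24.4, 45.7 and 64.2 CPM (log2 -1.45, SE 0.30, edgeR adjusted p = 0.0387), although this call was lost without any 1 of the 3 untreated libraries or without colitic library 2 (edgeR adjusted p = 0.0995 to 0.182) and with limma. Acsl4, which activates arachidonate, went from 49.2, 43.0 and 62.4 CPM to 147, 125 and 234 CPM in Tmem173fl/fl mice and rose by 1.78 on the log2 scale (SE 0.24, edgeR adjusted p = 0.000355). It was at 58.9, 69.3 and 65.8 CPM in colitic Tmem173iΔmye mice, 2.62-fold below colitic Tmem173fl/fl mice (log2 -1.39, SE 0.25, edgeR adjusted p = 0.0278), a call lost without Tmem173fl/fl library 1 or 3 or Tmem173iΔmye library 2 or 5 and with limma (adjusted p = 0.052 to 0.0951).

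**Figure D5:**
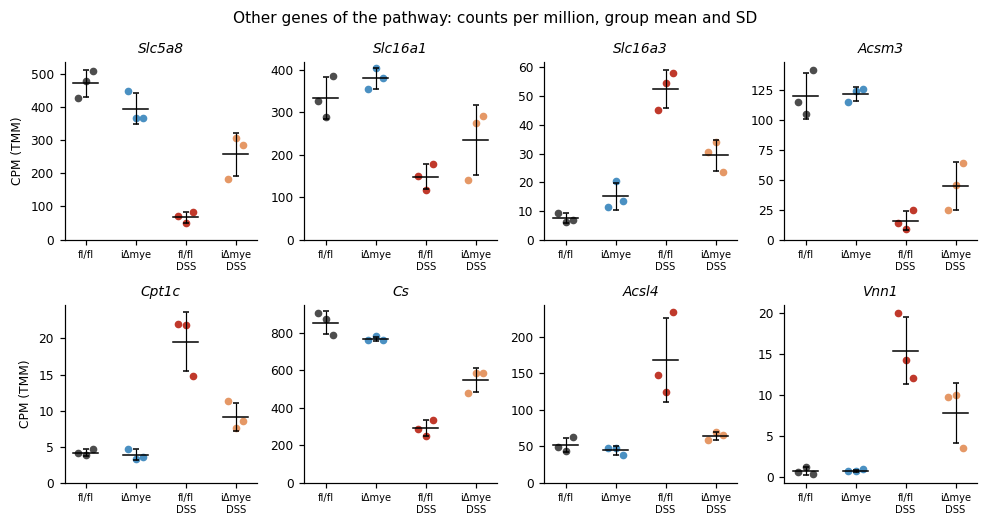
CPM (TMM-scaled, linear axes) of 8 other genes of the pathway in every colon library, with 1 point per library, the group mean as a line and the SD as bars. Slc5a8 lies at 50.04 to 82.0 CPM in colitic Tmem173fl/fl and at 183 to 305 CPM in colitic Tmem173iΔmye mice, without overlap.

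Of the remaining genes, Vnn1, the pantetheinase induced by PPARα, rose in both genotypes. It went from 0.682, 1.29 and 0.376 CPM to 19.9, 14.2 and 12.1 CPM in Tmem173fl/fl mice (log2 4.37, SE 0.40, edgeR adjusted p = 2.79e-05) and from 0.728, 0.719 and 0.962 CPM to 9.76, 10.02 and 3.58 CPM in Tmem173iΔmye mice (log2 3.26, SE 0.47, edgeR adjusted p = 0.00906). The call in Tmem173iΔmye mice was lost without any 1 of the 3 untreated libraries (edgeR adjusted p = 0.0825 to 0.0961) and with limma. Cpt1c, the brain form of Cpt1, and Acox2, a peroxisomal oxidase of branched chains, rose by 2.29 and 2.66 in log2 in Tmem173fl/fl mice (adjusted p of 4.81e-05 and 0.00412 by edgeR). With limma on log2(FPKM + 1) the rise of Acox2 was 0.62, under 2-fold (limma adjusted p = 0.0182). Cs, citrate synthase, a common measure of mitochondrial content, was at 903, 872 and 786 CPM in untreated and 289, 252 and 335 CPM in colitic Tmem173fl/fl mice and fell by 1.48 (SE 0.16, edgeR adjusted p = 7.51e-05). It was at 762, 782 and 761 CPM in untreated and 476, 585 and 588 CPM in colitic Tmem173iΔmye mice, an interaction of 1.07 (SE 0.22, edgeR adjusted p = 0.0249) that passed in 10 of 21 alternatives. It was lost without any 1 of 9 of the 12 libraries (0.90 to 1.08, edgeR adjusted p up to 0.0849), and kept without untreated Tmem173fl/fl 3, colitic Tmem173fl/fl 3 or colitic Tmem173iΔmye 1. It was also lost under the replicate block (edgeR adjusted p = 0.0591) and without the libraries of female pattern (edgeR adjusted p = 0.114). Of the 9 listed genes of mitochondrial mass, 2 fell past the rule in Tmem173fl/fl mice, Cs and the chaperonin Hspd1 (named after its values were seen), and 5 fell at the adjusted p alone.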

How the data were processed

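RNA of 12 mouse colon libraries was sequenced from polyA-selected NEBNext Ultra libraries. The submitters' processing notes name CASAVA 1.8, fastp, HISAT2 2.0.5, featureCounts 1.5.0-p3 and DESeq2 1.20.0, with GRCm38. The authors deposited raw counts per gene, and FPKM values that scale those counts by gene length and depth. The use of strand is not given in the sources used here. The authors' own fold changes, p-values and group means were not used.

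The 24102 genes of 54532 that reached 0.1 FPKM in 3 or more libraries were tested on the counts with edgeR 4.0.16 quasi-likelihood tests (R 4.3.3, TMM scaling). Fits held the compared groups only, and all 12 libraries for the interaction. Calls required an adjusted p under 0.05 after Benjamini-Hochberg adjustment over every tested gene and a change of 2-fold or more. The SE is the log2 change divided by the square root of F. DESeq2 1.42.0, limma 3.58.1 on log2(FPKM + 0.1) or log2(FPKM + 1), other scalings, filters and call rules, a block on replicate number, and fits without 1 library were alternatives. The fits were tested on simulated data. No pair of libraries was identical (highest Spearman 0.981). Totals of 13823237 to 18718915 counts set the counting precision.

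The members, the lists and the named genes were chosen with earlier results of these data known. Values per library are given for members called in the genotype or interaction comparisons, the largest DSS changes, 1 member of each role and others of interest. Promoter windows are from RefSeq GRCm38.p6, and motifs were searched on both strands.
One result on another gene of the pathway is not reported here.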

Additional observations from a re-analysis of the deposited data

Results flagged for a closer look

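The response to DSS differed between the genotypes, by the interaction term of an edgeR fit of all 12 libraries, for 1 member and 3 other genes of the pathway. The difference (Tmem173iΔmye minus Tmem173fl/fl, log2 scale) was -2.82 for Angptl4 (adjusted p = 0.0134), with 3 of 3 colitic libraries above all untreated ones in each genotype. It was 2.18 for Slc5a8 (adjusted p = 0.0059), -1.84 for Slc16a3 (adjusted p = 0.0134) and 1.07 for Cs (adjusted p = 0.0249). With 3 libraries a group, single libraries were not tested for standing apart.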

How the results depend on the processing

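In Tmem173fl/fl mice the 9 members called for DSS became 21 at the adjusted p alone and 8 to 11 without any 1 library. In Tmem173iΔmye mice the 1 member became 3 at an unadjusted p, 2 with no filter, 0 with filterByExpr, 0 with limma at either pseudocount, and 0 to 2 without 1 library. Between untreated genotypes 0 became 1 at an unadjusted p and stayed 0 without any 1 library. Between colitic genotypes 1 became 5 at an unadjusted p, 4 with DESeq2, 4 with no filter, 4 in 1 fit of 12 libraries, 0 with limma at either pseudocount and 0 to 3 without 1 library. The interaction count of 1 became 7 at an unadjusted p, 3 with DESeq2, 5 with no filter, 2 with limma on log2(FPKM + 1), 0 without the libraries of female pattern, and 1 to 3 without 1 library. The 1 fit of 12 libraries is the interaction's own fit and was not run as an alternative there.

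After the group mean of each gene was subtracted, same-numbered libraries correlated at only -0.08 to 0.11, and they share a number only. The replicate block moved the counts to 3 (DSS in Tmem173iΔmye, with Fabp2 and Pdk4 added), 2 (colitic genotypes, with Acaa1b) and 2 (interaction, with Acaa1b), and kept 9 and 0 in the others.

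Signs turned for small changes. Ppara after DSS in Tmem173fl/fl mice was 0.074 under the block, 0.049 and 0.029 with limma, and -0.20 to 0.47 without 1 library, and Cpt1a was -0.10 to 0.025. Pdk4 after DSS in Tmem173iΔmye mice was -0.021 to 1.03 without 1 library. Fabp2 between colitic genotypes was -0.50 and -0.45 with limma and -0.87 to 0.91 without 1 library, and its interaction was -1.61 to 0.17. The causes were not tested. Of the other alternative values of single genes, 1168 kept direction and call by the rule of their own setting, 22 of them on the other side of the adjusted p alone. Another 50 were newly called and 55 were no longer called. The newly called include values that met only a changed rule, the adjusted p alone or an unadjusted p with 2-fold. With 3 libraries a group, changes under 2-fold were often at the edge of detection.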
